A study of Mus musculus with 2 samples.

Results

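The 8 genes of Wnt signalling described here were followed across the cell classes of the embryonic mouse cortex: the ligands Wnt7a, Wnt7b and Wnt5a, the R-spondin Rspo3, the nuclear effectors Lef1, Tcf7l1 and Tcf7l2, and the pathway target and inhibitor Axin2. They were chosen by gene symbol and were 8 of 32285 genes counted. The data came from single-cell RNA sequencing of the dorsal telencephalon at embryonic day (E) 16.5, in 2 libraries labelled wild type (WT), named here WT replicate 1 and WT replicate 6 after their labels. Both belonged to a series built around the deletion of Dot1l with Emx1-Cre, a Cre line active in the dorsal telencephalon, but were labelled WT; the strain, any allele they carried, and the sex of the embryos were not stated in the labels, and knockout libraries were not analysed here. Cells were kept with 1500 to 60000 unique molecular identifiers (UMIs, each counting one captured transcript) and under 10% mitochondrial UMIs, which left 8139 of 14136 cells in replicate 1 and 8209 of 13046 in replicate 6, with medians of 6924 and 6664 UMIs. The libraries shared 59 cell barcodes, 0.417% and 0.452% of their cells. Marker gates placed 3795 and 4108 kept cells into classes, while 53.0% and 49.7% of kept cells matched no gate. The gates also found striatal neurons (317 and 285 cells) and progenitors of the ganglionic eminences (328 and 328 cells), so the dissections held tissue beyond the cortex.

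Wnt ligands are secreted glycoproteins that bind Frizzled receptors and their co-receptors. In the canonical branch, binding stabilises beta-catenin, which enters the nucleus and acts with DNA-binding proteins of the TCF/LEF family; R-spondins raise the response by protecting Frizzled receptors from removal at the membrane. Wnt7a and Wnt7b from neural cells are known to direct the growth and barrier properties of brain vessels, Wnt5a is best known for beta-catenin-independent signalling, and the cortical hem at the medial edge of the cortex is an early source of Wnts and of Cajal-Retzius cells.

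The genes lie on 7 chromosomes of the mm10 build (GRCm38.p6 annotation from RefSeq): Wnt7a at chr6:91363981-91411353, Tcf7l1 at chr6:72626371-72789045, Wnt7b at chr15:85535437-85581821, Wnt5a at chr14:28504543-28527448, Rspo3 at chr10:29453106-29535867, Lef1 at chr3:131110297-131224357, Axin2 at chr11:108917828-108950783 and Tcf7l2 at chr19:55741797-55933659. RefSeq promoter entries of the same build were used for 5 of the 8 genes, and Wnt7b, Wnt5a and Rspo3 had none there. The first entries of the 3 TCF/LEF genes are shown because these factors bind the letters marked: the 250 bases before each transcription start are printed 5′ to 3′ on the gene's strand, with the core CAAAG, or CTTTG where it lies on the opposite strand, in capitals.
Lef1, chr3:131110047-131110296, plus strand: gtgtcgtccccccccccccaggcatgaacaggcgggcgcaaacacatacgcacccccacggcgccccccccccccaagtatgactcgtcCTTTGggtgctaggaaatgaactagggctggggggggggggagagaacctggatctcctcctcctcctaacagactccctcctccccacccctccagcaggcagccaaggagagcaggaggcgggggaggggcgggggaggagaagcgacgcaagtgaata
Tcf7l1, chr6:72789046-72789295, minus strand: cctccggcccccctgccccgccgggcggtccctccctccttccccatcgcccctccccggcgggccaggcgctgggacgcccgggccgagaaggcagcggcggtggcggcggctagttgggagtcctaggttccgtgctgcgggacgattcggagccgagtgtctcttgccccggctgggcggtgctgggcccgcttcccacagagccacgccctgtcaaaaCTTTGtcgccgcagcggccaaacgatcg
Tcf7l2, chr19:55741560-55741809, plus strand: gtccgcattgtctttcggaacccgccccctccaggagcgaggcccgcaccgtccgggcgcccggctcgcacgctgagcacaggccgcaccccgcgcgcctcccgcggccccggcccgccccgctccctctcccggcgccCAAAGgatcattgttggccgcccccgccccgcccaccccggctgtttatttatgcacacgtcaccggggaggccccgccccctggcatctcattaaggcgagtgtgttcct
Each held 1 core, beginning 161, 28 and 111 bases before the start in Lef1, Tcf7l1 and Tcf7l2. These starts are those of the promoter entries, and the Tcf7l2 window runs past the first base of the gene given above. Further entries, not shown, held 2, 1 and 3 cores for Lef1 and 1 for Tcf7l2. The Axin2 and Wnt7a entries held 0. Of all 32851 promoter windows of this length, 48.6% held at least 1 core, so its presence is a description of the letters and does not set these genes apart.

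Each gene's UMIs were summed per library and class and expressed as CPM, the gene's share of all UMIs in that class scaled to 1000000 UMIs. CPM values are compared for 1 gene across classes only. Genes outside the gates were high in the endothelial, fibroblast and radial glia classes. Kdr, a vascular endothelial growth factor receptor, was at 813 to 836 CPM in the endothelial cells against 11.3 to 14.4 in fibroblasts. Ogn was at 249.8 to 313.5 CPM in fibroblasts, and Fabp7 at 8290 to 9823 CPM in radial glia against 699.8 to 771.9 in intermediate progenitors. For the other classes no such values are given here. Requiring 1 more marker removed 67.6% and 69.9% of newborn neurons, 59.3% and 59.9% of deep-layer neurons and 62.5% and 62.8% of CGE interneurons. It removed 5.80% and 10.2% of endothelial cells. Erythroid cells, which should lack all 8 genes, held at most 3 UMIs of any of them over both libraries, which was taken as the level of free RNA. The erythroid gate left out cells with more than a trace of excitatory or GABAergic marker UMIs. Cells with more free neuronal RNA were thus removed, and this level may be too low, above all for genes of neurons. Levels below about 3 CPM lay in that range and cannot be told apart from free RNA. Where a class is that low, a tested difference of the 8 genes is given on the log2 scale or as UMIs, between measured values. Folds within each library and ratios of UMIs printed beside such differences show only how far libraries and counting spread, and are not sizes of the difference.

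**Figure D1:**
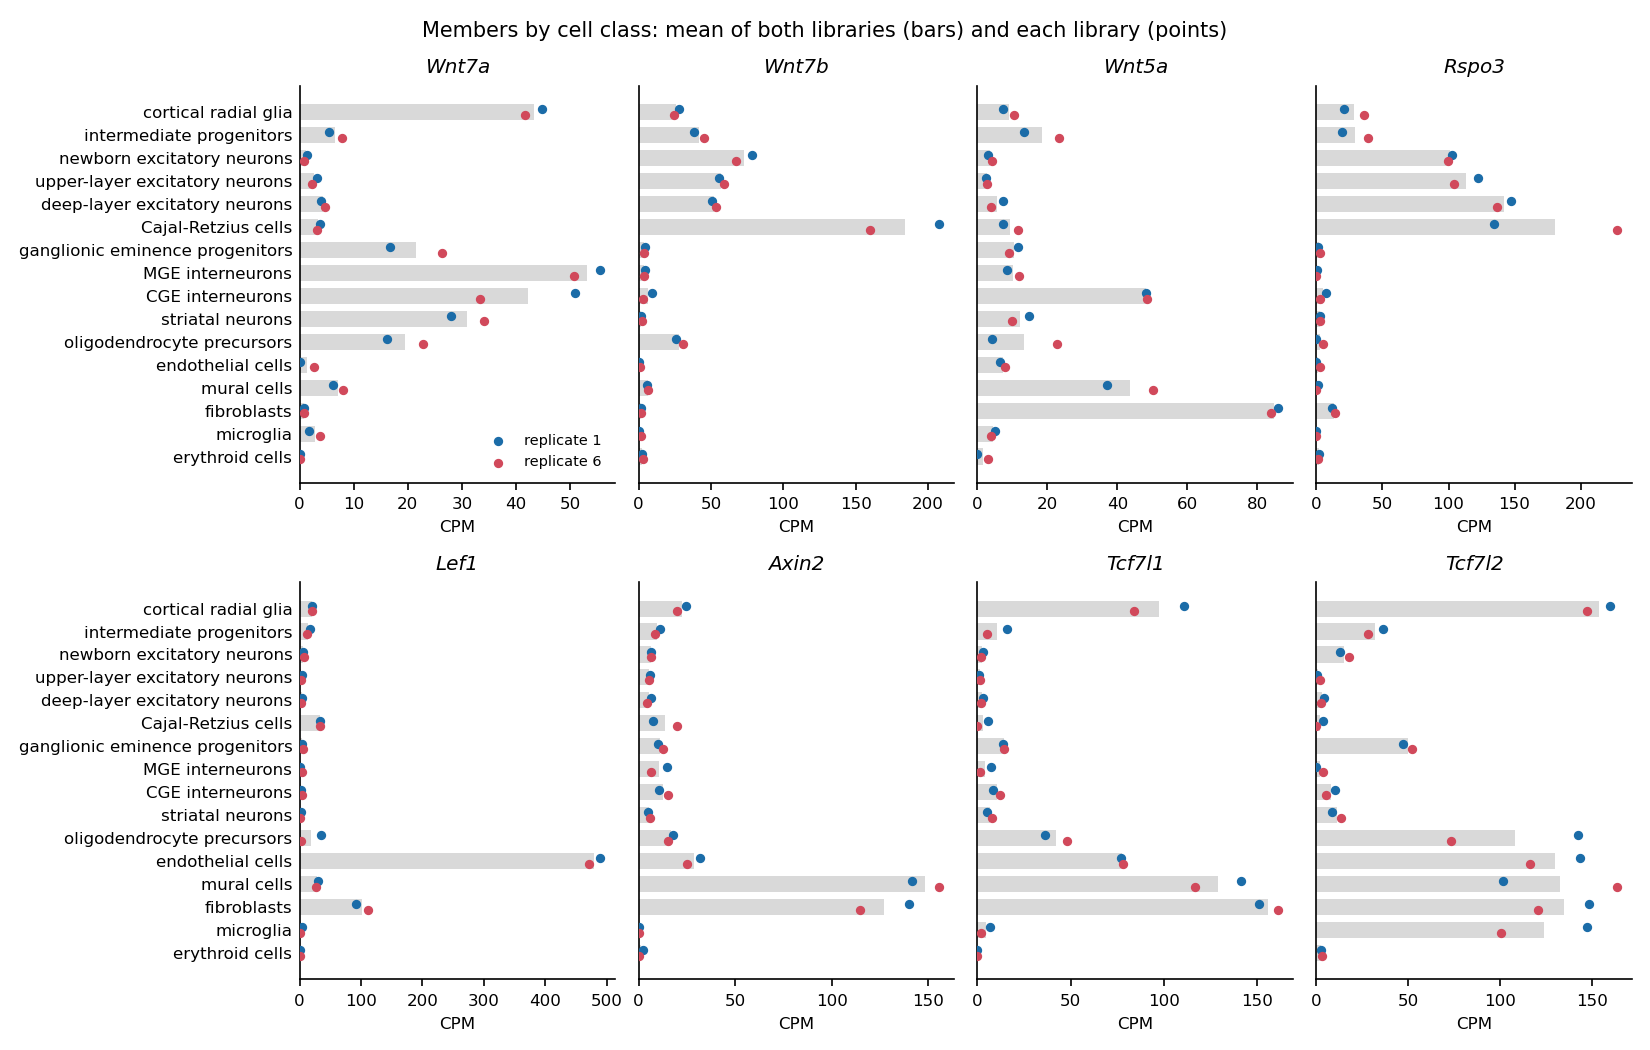
Level of each gene (x axis, CPM on a linear scale that starts at 0 and differs between panels) in 16 cell classes (y axis). Bars give the mean of the 2 libraries and points each library; Wnt7a is high in radial glia and in the GABAergic classes, Wnt7b and Rspo3 in excitatory neurons and Cajal-Retzius cells, Lef1 in endothelial cells, and Axin2 in mural cells and fibroblasts.

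The ligands split between the cortical lineages. Wnt7a was at 44.9 and 41.6 CPM in cortical radial glia of replicates 1 and 6, the stem cells that line the ventricle. In intermediate progenitors, the progenitors that radial glia give rise to, it was at 5.44 and 7.78 CPM. In newborn excitatory neurons it was at 1.44 and 0.766 CPM, in upper-layer neurons at 3.22 and 2.21, and in deep-layer neurons at 3.88 and 4.63. The radial glia stood above all later stages of the lineage, without overlap between the libraries of the classes. The highest Wnt7a levels were in interneurons of the medial ganglionic eminence (MGE), at 55.5 and 50.7 CPM, followed by radial glia and by interneurons of the caudal ganglionic eminence (CGE), at 50.9 and 33.4 CPM. Radial glia and CGE interneurons overlapped, while MGE interneurons were above radial glia in both libraries. That order rests on 79 and 72 UMIs against 105 and 107 and was not tested. Cycling radial glia, split off below, came closer to MGE interneurons, at 49.7 and 47.2 CPM. Striatal neurons were at 28.0 and 34.1 CPM and ganglionic eminence progenitors at 16.7 and 26.3 CPM.

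Wnt7b ran the other way. It was at 27.8 and 24.5 CPM in radial glia, 38.6 and 45.1 in intermediate progenitors, and 78.3 and 67.2 in newborn neurons, the highest stage of the excitatory lineage. Upper-layer neurons were at 55.5 and 59.1 CPM and deep-layer neurons at 51.1 and 53.3 CPM. None of these neighbouring classes overlapped. Non-cycling radial glia, split off below, were at 42.3 and 38.8 CPM and did overlap intermediate progenitors. Of radial glia, 129 of 234 and 145 of 261 cells were cycling, against 61 of 208 and 52 of 218 intermediate progenitors. How far this mix of cycling cells enters the first step was not tested. Outside the lineage, Cajal-Retzius cells, the early marginal-zone neurons that secrete reelin, were at 207.7 and 159.9 CPM, the highest of the 16 classes. Interneurons were low, at 4.22 and 3.52 CPM for MGE and 9.43 and 3.03 CPM for CGE cells.

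Wnt5a was low throughout the excitatory neurons, at 2.37 to 7.19 CPM over the 3 stages, and was at 13.4 and 23.3 CPM in intermediate progenitors, against 7.26 and 10.5 in radial glia. CGE interneurons were at 48.1 and 48.5 CPM, and MGE interneurons at 8.44 and 11.98. Fibroblasts, at 86.0 and 83.9 CPM, were the highest class, and mural cells, which wrap small vessels, were at 36.9 and 50.3 CPM, overlapping CGE interneurons.

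Between radial glia and intermediate progenitors, 6 of the 8 genes passed the test across all genes (adjusted p under 0.05), against 34.3% of the 11713 genes tested. Of the 8 genes, 4 were higher in radial glia, as were 18.3% of all genes, and 2 were lower, as were 16%. Tcf7l1, a TCF factor known as a repressor of Wnt targets, was 8.69-fold higher (111.1 and 83.9 against 15.8 and 5.19 CPM; log2 difference 3.12 ± 0.31 SE, adjusted p = 2.03e-05; 6.93-fold within replicate 1 and 15.6-fold within replicate 6). Wnt7a was 6.20-fold higher (2.63 ± 0.25, adjusted p = 1.48e-05). Tcf7l2 was 4.55-fold higher (160.2 and 147.3 against 36.1 and 28.0 CPM; 2.19 ± 0.16, adjusted p = 1.83e-06). Axin2, whose transcript is a common readout of canonical signalling, was 2.20-fold higher (24.8 and 19.8 against 10.9 and 8.30 CPM; adjusted p = 0.00936). Wnt7b (-0.75 ± 0.19, adjusted p = 0.00942) and Wnt5a (-1.10 ± 0.34, adjusted p = 0.0297) were lower in radial glia. The median log2 difference was 0.80 over the 8 genes, 0.07 over a wider list of Wnt pathway genes and -0.02 over all genes. Axin2, Wnt7b and Wnt5a were not called by DESeq2 (adjusted p 0.0904 to 0.161) or with 1 more marker required per class (0.0679 to 0.133). Of 41 tested genes of the wider Wnt list, 13 were higher and 6 lower in radial glia, led by Dkk3, a dickkopf-family protein, at 37.6 against 3.54 CPM, and the R-spondin receptor Lgr4, at 17.3 against 2.02 CPM. Nkd1, an inhibitor of the pathway, was lower at 6.86 against 17.5 CPM, as was the nuclear cofactor Pygo1 at 23.1 against 41.9 CPM.

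The step from intermediate progenitors to newborn neurons moved 7 of the 8 genes, against 38% of 12167 genes. Of the 8, 5 were higher and 2 lower in intermediate progenitors, against 19.6% and 18.4% of all genes; the median log2 difference was 1.07 over the 8, 0.12 over the wider list and -0.003 over all genes. Wnt7a (log2 difference 2.46 ± 0.49, adjusted p = 0.00329), Wnt5a (2.25 ± 0.35, adjusted p = 0.000791), Tcf7l1 (2.05 ± 0.53, adjusted p = 0.0136), Lef1 (1.16 ± 0.30, adjusted p = 0.0139) and Tcf7l2 (0.98 ± 0.22, adjusted p = 0.00637) were higher in intermediate progenitors. Within replicates 1 and 6 the Wnt7a fold was 3.52 and 8.75, and the Tcf7l1 fold 5.27 and 2.59. Wnt7b was 1.85-fold and Rspo3 3.72-fold higher in newborn neurons (adjusted p = 0.000856 and 0.000119). Rspo3 was at 19.3 and 38.9 CPM in intermediate progenitors and at 102.4 and 99.7 CPM in newborn neurons. Without cells that held a medial marker, described below, it was at 18.3 and 10.1 CPM in intermediate progenitors and 101.4 and 100.8 CPM in newborn neurons (log2 difference -2.91, adjusted p = 2.71e-06). Axin2, at 10.9 and 8.30 against 6.39 and 6.70 CPM, did not pass (adjusted p = 0.263). Lef1 was not called by DESeq2 (adjusted p = 0.0745) or under stricter gates (0.118), and Tcf7l2 was not under stricter gates (log2 difference 0.19, adjusted p = 0.567). In the wider list, 12 of 42 genes were higher and 7 lower in intermediate progenitors; cyclin D1 (Ccnd1) fell from 55.6 to 6.96 CPM in newborn neurons and the Frizzled receptor Fzd8 from 15.5 to 3.09 CPM. Tle2, a Groucho-family corepressor, went from 2.79 to 12.5 CPM and Lgr4 from 2.02 to 7.52 CPM.

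**Figure D2:**
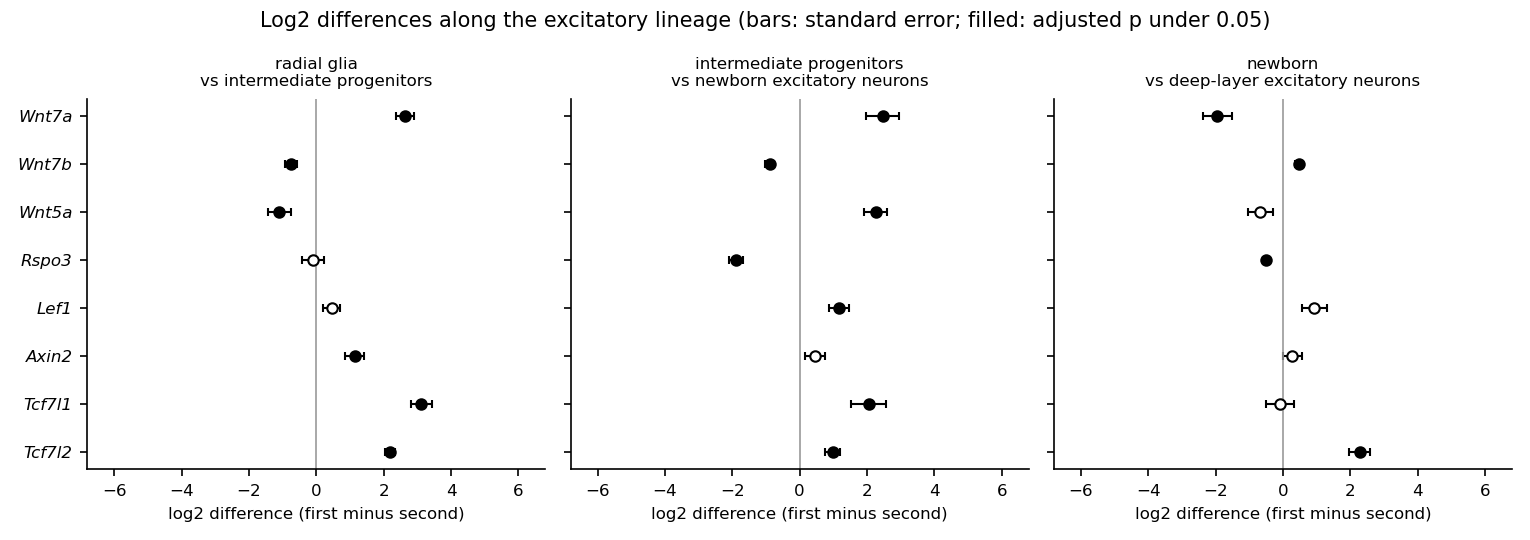
Log2 differences (x axis, first class minus second) of the 8 genes (y axis) for 3 steps of the excitatory lineage, each over the 2 libraries per class. Points are fitted differences, bars standard errors, and filled points have an adjusted p under 0.05; Tcf7l2 lies to the right of 0 at all 3 steps, while Rspo3 and Wnt7b lie to the left at the step to newborn neurons.

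Among postmitotic stages, 4 of 8 genes differed between newborn and deep-layer neurons, against 19.7% of 12716 genes. Newborn neurons were higher for 2 and lower for 2, against 7.79% and 11.9% of all genes (median log2 difference 0.09 over the 8, 0.25 over the wider list, 0.004 over all genes). Tcf7l2 was at 13.0 and 17.6 CPM in newborn neurons and at 3.88 and 2.32 CPM in deep-layer neurons (log2 difference 2.27 ± 0.30, adjusted p = 0.000443). The deep-layer level was close to that in erythroid cells, 2.32 and 3.11 CPM. The fold was 3.28 within replicate 1 and 7.33 within replicate 6. Along the 3 steps the Tcf7l2 level went from 153.7 ± 9.13 CPM (SD, n = 2) in radial glia to 32.1 ± 5.74, 15.3 ± 3.28 and 3.101 ± 1.11 CPM. The last value cannot be told apart from free RNA, and the middle step was not called under stricter gates. Rspo3 was 1.42-fold higher in deep-layer neurons (adjusted p = 0.00187). Wnt7a was also higher there (log2 difference -1.95 ± 0.44, adjusted p = 0.0109), with 11 UMIs in newborn cells. Wnt7b was 1.38-fold higher in newborn neurons (adjusted p = 0.0121). DESeq2 did not call Wnt7a or Wnt7b (0.0859 and 0.0871), stricter gates did not call Wnt7b (0.202), and a fit of all classes did not call Rspo3 (0.0773). In the wider list, 11 of 44 genes were higher and 3 lower in newborn neurons. The Frizzled receptors Fzd2 (30.7 against 9.67 CPM) and Fzd1 (19.7 against 7.53 CPM) led the first group, and Rspo2, a second R-spondin, was at 2.65 CPM in newborn and 23.7 CPM in deep-layer neurons.

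Upper- and deep-layer neurons showed 0 calls among the 8 genes in edgeR, with 3 at an unadjusted p under 0.05, while 9.65% of 12871 genes were called, 3.05% higher and 6.6% lower in upper-layer neurons (median log2 difference -0.47 over the 8, 0.10 over the wider list, 0.01 over all genes). DESeq2 also called 0. With each library as a replicate block, 2 were called, both lower in upper-layer neurons: Rspo3 (122.6 and 103.9 against 147.2 and 137.1 CPM; log2 difference -0.31, adjusted p = 0.00201) and Wnt5a (-1.06, adjusted p = 0.0426, on 33 UMIs in the upper-layer cells). Stricter gates called Rspo3 (-0.61, adjusted p = 0.00462). Rspo2 was 13.4 CPM in upper- and 23.7 CPM in deep-layer neurons (adjusted p = 0.0356), and Apcdd1, a membrane inhibitor of Wnt signalling, was 2.03 against 7.54 CPM. Dkk3 was higher in upper-layer neurons at 12.7 against 4.72 CPM, as was Fzd1 at 13.4 against 7.53 CPM. In all, 6 of 43 genes of the wider list were higher and 3 lower.

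In radial glia, the Rspo3 reads came from very few cells. Of 495 radial glia, 17 held at least 1 UMI of the medial markers Wnt8b, Lmx1a, Wnt3a or Wnt2b, which mark the hem and adjoining medial wall. These 17 cells, 10 in replicate 1 and 7 in replicate 6, held 133 of the 141 Rspo3 UMIs (94.3%). The 6 cells with 2 or more of the markers, 3 in each library, held 129, with 11 to 35 UMIs apiece; 5 of the 6 also held a UMI of a choroid plexus marker (Folr1, Clic6, Kcnj13 or Kl), against 27 of the 478 radial glia without a medial marker. By contrast, 7 of 478 radial glia without a marker (1.46%) held any Rspo3 UMI, and at most 2 UMIs were found in one. The median depth was 9875 UMIs in the marker-positive and 9383 in the other cells. In CPM, medial-marker cells were at 430.3 and 1124 and the other radial glia at 1.34 and 2.003, close to the level in erythroid cells (2.32 and 1.56). The class fell short of 10 cells in replicate 6, so the difference was given no test.

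**Figure D3:**
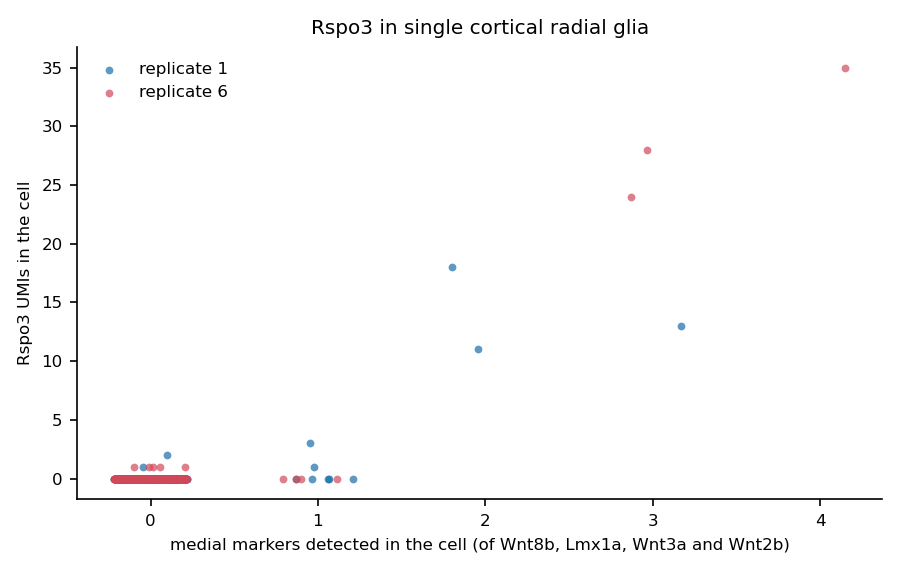
Rspo3 UMIs in each of 495 cortical radial glia (y axis) by the number of medial markers detected in the same cell (x axis, with a small random shift to separate points). The 6 cells with 2 or more markers hold 11 to 35 UMIs, and cells with no marker hold at most 2.

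The other R-spondins of radial glia also lay mostly in these cells. The 6 cells with 2 or more medial markers held 42 Rspo1 UMIs, against 2 in all other radial glia. They held 102 Rspo2 UMIs; a further 19 lay in 1 cycling cell of replicate 1 with a single medial marker, and 4 in the 478 cells without one. Among members, Wnt5a was at 37.4 and 116.3 CPM in medial-marker radial glia (13 UMIs in all) against 5.82 and 7.21 CPM in the rest. Wnt7a was at 18.7 and 12.9 CPM, from 3 UMIs, against 46.1 and 42.5. Its ratio of the rest over medial-marker cells was 2.71, with a 95% counting interval of 0.916 to 13.3, which includes no difference. Tcf7l2 overlapped, at 159.0 and 116.3 against 160.3 and 148.2 CPM. In intermediate progenitors, cells with a medial marker (6 and 4) held 3 of 39 Rspo3 UMIs in replicate 1 and 56 of 75 in replicate 6. Rspo3 did not differ detectably between radial glia and intermediate progenitors with all cells (20.9 and 35.8 against 19.3 and 38.9 CPM; log2 difference -0.09 ± 0.32, adjusted p = 0.861), and was lower in radial glia when medial-marker cells were left out of both (-3.096, adjusted p = 0.000738). Neurons did not share this concentration: in newborn neurons without a medial marker, 178 of 570 and 197 of 644 cells held Rspo3.

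Radial glia were also split by 6 cell-cycle genes into 129 and 145 cycling and 105 and 116 non-cycling cells. Of the 8 genes, 2 were called, against 11.1% of 10402 genes, and both were lower in cycling cells, as were 4.71% of all genes, while 6.4% were higher (median log2 difference -0.34 over the 8, -0.11 over the wider list, -0.01 over all genes). Wnt7b was at 19.5 and 15.3 CPM in cycling and 42.3 and 38.8 CPM in non-cycling radial glia, 2.27-fold apart (adjusted p = 0.0120; 0.0174 without medial-marker cells; 0.184 in DESeq2). Rspo3 was at 4.03 and 1.28 against 50.5 and 89.6 CPM (log2 difference -4.67 ± 0.44, adjusted p = 1.90e-06). The fold was 11.4 within replicate 1 and 54.1 within replicate 6. However, the 6 Rspo3-rich cells were all non-cycling. Without medial-marker cells each side held 4 Rspo3 UMIs and the gene was not tested. Wnt7a was at 49.7 and 47.2 in cycling and 36.4 and 32.8 CPM in non-cycling cells without reaching the threshold (0.52 ± 0.23, adjusted p = 0.172). In the wider list, 1 of 39 genes was higher, the Wnt5a receptor Ror2 (28.2 against 8.09 CPM), and 4 were lower, led by Rspo1 (1 against 43 UMIs; ratio 70.8, 95% counting interval 12.1 to 2861) and Rspo2 (23 against 102 UMIs), neither of which was tested without medial-marker cells.

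Interneurons and excitatory neurons differed most in their ligands. Rspo3 was at 3.63 and 1.25 CPM in interneurons and 124.4 and 112.0 CPM in excitatory neurons, a log2 difference of -5.65 ± 0.23 (adjusted p = 2.46e-07), with 12 UMIs on the interneuron side; the fold was 33.8 within replicate 1 and 86.3 within replicate 6. Wnt7b was 12.9-fold lower in interneurons (6.45 and 3.32 against 61.0 and 59.98 CPM; adjusted p = 1.22e-06). Wnt7a was higher in interneurons (53.6 and 43.6 against 2.89 and 2.45 CPM; 4.12 ± 0.18, adjusted p = 4.14e-07) and Wnt5a 6.52-fold higher (25.4 and 27.0 against 4.15 and 3.52 CPM; adjusted p = 9.01e-06). Interneurons were shallower, with median depths of 4838 and 4364 UMIs a cell against 8297 and 7551. At an equal depth of 2000 UMIs a cell, Rspo3 was found in 12.6% and 12.8% of newborn neurons and in 1 of 255 and 0 of 286 MGE interneurons, the latter allowing a share of up to 1.05% (31.5% and 30.7% against 0.372% and 0% unthinned). This left out 14 and 5 newborn neurons and 14 and 18 MGE cells below that depth. Wnt7a was found in 10.5% ± 0.979 (SD, n = 2) of MGE interneurons and 0.254% ± 0.142 of newborn neurons at that depth (22.0% and 0.824% unthinned). Erythroid cells held both genes in 0 of 64 and 0 of 95 cells, allowing up to 4.69% and 3.16%.

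The effectors differed less. Tcf7l1 was higher in interneurons (7.65 and 5.81 against 2.20 and 1.85 CPM; 1.67 ± 0.33, adjusted p = 0.00456), and Axin2 was 1.89-fold higher (12.9 and 9.97 against 6.16 and 5.43 CPM; adjusted p = 0.0170). In all, 6 of 8 genes were called, against 35.8% of 14427 genes. Interneurons were higher for 4 and lower for 2, against 17.6% and 18.3% of all genes (median log2 difference 0.17 over the 8, 0.03 over the wider list, -0.02 over all genes). Lef1 and Tcf7l2 were not called (adjusted p = 0.318 and 0.187). Leaving out doublet-scored cells brought Tcf7l2 past the threshold, lower in interneurons (log2 difference -1.26, adjusted p = 0.0419). The machinery around the ligands also differed. Wls, the carrier that Wnt ligands need to leave the cell, was at 63.3 CPM in interneurons and 2.85 CPM in excitatory neurons (4.40 ± 0.15, adjusted p = 1.02e-07), and the receptor Ror2 was at 78.5 against 5.36 CPM. Fzd1 was lower in interneurons at 2.66 against 13.6 CPM, and Rspo2 held 2 UMIs there against 433 in excitatory neurons (ratio 32.4, 95% counting interval 8.92 to 268.5). Of 48 genes of the wider list, 10 were higher and 8 lower in interneurons.

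**Figure D4:**
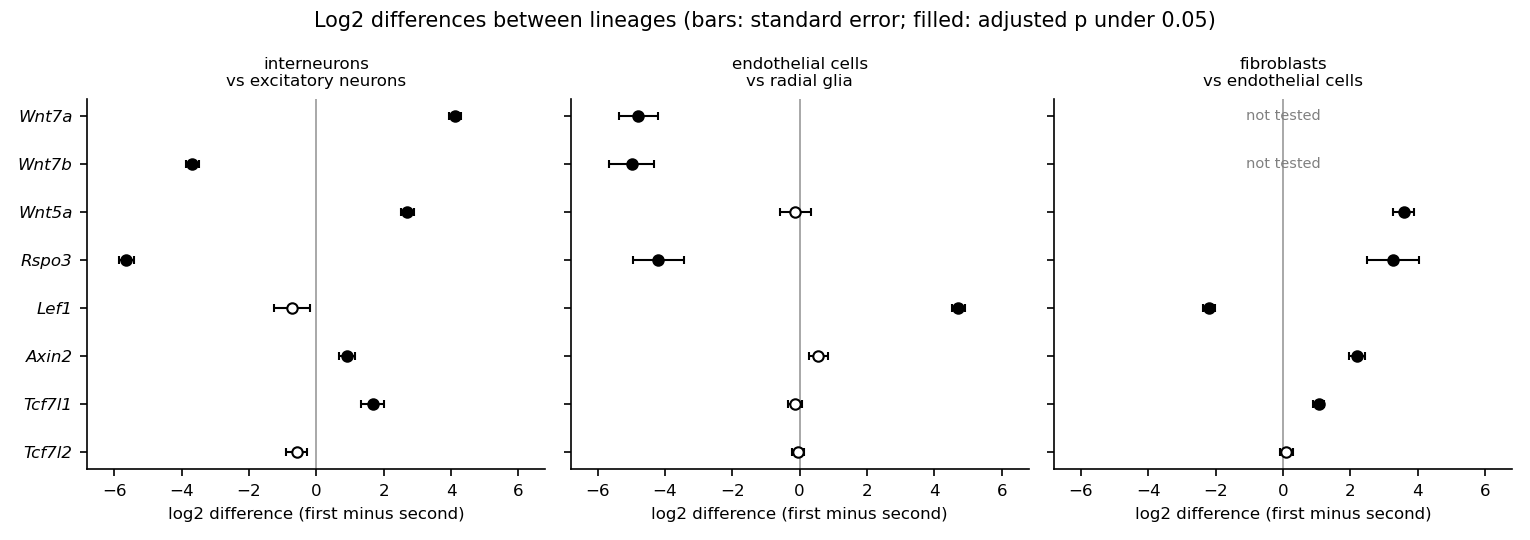
Log2 differences (x axis, first class minus second) of the 8 genes (y axis) between lineages, each over the 2 libraries per class; bars are standard errors and filled points have an adjusted p under 0.05. Rspo3 and Wnt7b lie far to the left and Wnt7a far to the right for interneurons, and Lef1 lies far to the right for endothelial cells; Wnt7a and Wnt7b had too few UMIs to be tested between fibroblasts and endothelial cells.

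Between the interneuron origins, 4 of the 8 genes had enough UMIs to test and 1 was called, against 7.29% of 9993 genes. It was lower in MGE cells, as were 3.46% of all genes, and 3.82% were higher; the median log2 difference was -0.75 over the 4, -0.12 over the wider list and -0.002 over all genes. Wnt5a was 4.66-fold higher in CGE than in MGE interneurons (48.1 and 48.5 against 8.44 and 11.98 CPM; log2 -2.22 ± 0.27, adjusted p = 0.000525), a gap wider than the spread between libraries. At 2000 UMIs a cell it was found in 8.004% ± 2.29 of CGE and 2.60% ± 0.210 of MGE interneurons (SD, n = 2), and in 16.5% and 4.70% of all their cells unthinned. Wnt7a was at 55.5 and 50.7 in MGE and 50.9 and 33.4 CPM in CGE cells (adjusted p = 0.508). Axin2 overlapped, at 14.8 and 6.34 against 10.4 and 15.2 CPM. Tcf7l1, at 7.03 and 1.41 against 8.49 and 12.1 CPM, did not pass (adjusted p = 0.332). In the wider list, 2 of 30 genes were higher in MGE cells, the beta-catenin cofactors Bcl9 (376.9 against 182.3 CPM) and Pygo1 (67.9 against 39.7 CPM), and 1 was lower, the secreted inhibitor Draxin (46.1 against 109.7 CPM).

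Lef1, the effector that mediates canonical responses in brain vessels, was highest in endothelial cells. It was at 489.1 and 470.2 CPM in endothelial cells (69 and 59 cells), 92.1 and 110.9 CPM in fibroblasts, 29.2 and 25.9 CPM in mural cells, and 20.9 and 20.6 CPM in radial glia. Endothelial cells exceeded radial glia 26.3-fold (4.71 ± 0.19, adjusted p = 9.70e-08). At 2000 UMIs a cell, Lef1 was found in 50.6% ± 11.6 of endothelial cells and 2.85% ± 0.204 of radial glia (SD, n = 2), against 84.2% and 11.1% unthinned. Wnt7a and Wnt7b showed the reverse. Wnt7a had 0 and 2 UMIs in endothelial cells against 105 and 107 in radial glia (ratio 33.1, 95% counting interval 9.06 to 275.3), and Wnt7b had 0 and 1 against 65 and 63 (ratio 40.0, 7.05 to 1592). Rspo3 had 0 and 2 UMIs against 49 and 92, almost all of the latter in the medial-marker cells, and was not tested without them.

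Tcf7l2 (143.4 and 116.6 against 160.2 and 147.3 CPM), Tcf7l1 (76.8 and 78.1 against 111.1 and 83.9 CPM), Axin2 (32.0 and 25.2 against 24.8 and 19.8 CPM) and Wnt5a did not pass between endothelial cells and radial glia. Their log2 differences were -0.05 ± 0.17, -0.14 ± 0.20, 0.55 ± 0.28 and -0.13 ± 0.47. Of the 8 genes, 4 were called, against 46.2% of 11406 genes. Endothelial cells were higher for 1 and lower for 3, against 23.4% and 22.8% of all genes (median log2 difference -0.13 over the 8, -0.05 over the wider list, -0.03 over all genes). In this comparison the library scaling raised differences by a median of 0.20 on the log2 scale over those of the plain CPM, across 19 well-counted listed genes, and all but Axin2 of these 4 small differences are within that shift. In the wider list, 15 of 46 genes were higher and 14 lower in endothelial cells. Adgra2 (Gpr124), a co-receptor for Wnt7 ligands, held 82 UMIs in endothelial cells and 3 in radial glia (ratio 87.5, 95% counting interval 28.9 to 432.8), and Fzd6 was at 216.1 against 3.19 CPM. Sfrp1, a secreted Wnt antagonist, was at 476.0 CPM in radial glia and 13.8 CPM in endothelial cells. Rspo2 held 0 UMIs in endothelial cells, at least 13.0-fold below radial glia with 3 UMIs over both libraries as the floor. Of the 125 Rspo2 UMIs in radial glia, however, only 4 lay in the 478 cells without a medial marker. Rspo2 was not tested without medial-marker cells. All 9 genes of a vessel list, among them the glucose transporter Slc2a1 and the transcription factor Sox17, were higher in endothelial cells. The list was made of known vessel genes, so this outcome was likely from the choice and describes the class only.

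Fibroblasts differed from endothelial cells in 5 of 6 genes tested, against 34.5% of 9889 genes. Fibroblasts were higher for 4 and lower for 1, against 16.9% and 17.6% of all genes (median log2 difference 1.62 over the 6, 0.65 over the wider list, 0.02 over all genes). Wnt5a was 12.02-fold higher in fibroblasts (86.0 and 83.9 against 6.40 and 7.95 CPM; 3.59 ± 0.32, adjusted p = 4.27e-06), Axin2 4.56-fold (139.8 and 114.5 against 32.0 and 25.2 CPM; adjusted p = 2.14e-05) and Tcf7l1 2.08-fold (151.1 and 161.4 against 76.8 and 78.1 CPM; adjusted p = 0.000546). Rspo3 held 30 UMIs in fibroblasts and 2 in endothelial cells (14 and 16 against 0 and 2 by library; adjusted p = 0.00612; ratio 10.2, 95% counting interval 2.59 to 88.0), and DESeq2 did not call it (0.0733). Lef1 was 4.59-fold lower in fibroblasts (adjusted p = 2.96e-06). Tcf7l2 was at 148.5 and 120.8 against 143.4 and 116.6 CPM, with the libraries of the classes overlapping. In the wider list, 19 of 48 genes were higher and 8 lower in fibroblasts. Wnt6 (177 UMIs) and the Frizzled-removing ligase Rnf43 (52 UMIs) had 0 UMIs in endothelial cells, at least 40.1-fold and 11.8-fold lower with 3 UMIs over both libraries as the floor. Fzd4, the norrin and Wnt receptor of brain endothelium, was at 2.64 against 35.7 CPM, and Ccnd1 at 39.8 against 236.0 CPM.

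Axin2 was highest outside the neural classes. Mural cells were at 141.6 and 155.7 CPM and fibroblasts at 139.8 and 114.5 CPM, without overlap, and endothelial cells followed at 32.0 and 25.2 CPM. Radial glia (24.8 and 19.8 CPM) came next and did not overlap endothelial cells. From Cajal-Retzius cells down to intermediate progenitors, the classes overlapped one after the other between 6.34 and 19.8 CPM. Tcf7l2 was spread more widely: radial glia, fibroblasts, mural cells, endothelial cells, microglia and oligodendrocyte precursors ranged from 73.6 to 163.8 CPM, each overlapping its neighbour in that order, while upper-layer neurons were at 0.508 and 1.77 CPM. Microglia, at 147.3 and 100.8 CPM of Tcf7l2, held 0 UMIs of Rspo3 and of Axin2 in both libraries, where 3 UMIs would have given 5.14 and 5.71 CPM.

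The genes whose levels ran most alike to each member were ranked by Pearson's r of log2(CPM + 10) over 32 sums (16 classes in 2 libraries) among 7487 genes, as a description, since the points share libraries and depth. For Wnt7a they included Sox1 (r = 0.93) and its overlapping transcript Sox1ot (0.92). For Wnt7b they were Slc17a6, the vesicular glutamate transporter (0.90), Rspo3 (0.89) and Cib2 (0.88), and for Rspo3 they were Wnt7b (0.89), Cib2 (0.89) and Bhlhe22 (0.87). Wnt5a ran with Nbl1 (0.82), its receptor Ror2 (0.80) and Cald1 (0.78). Lef1 ran with Bsg (0.94), Ramp2 (0.94) and Jcad (0.93). Axin2 ran with Akap12 (0.95), Plat (0.93) and the collagen gene Col5a2 (0.93). Tcf7l1 ran with the Notch ligand Jag1 (0.96), Gulp1 (0.95) and Plod2 (0.94), and Tcf7l2 with Zfp36l1 (0.97), AI506816 (0.94) and Sash1 (0.94).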

How the data were processed

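The authors deposited, per the labels, raw UMI counts per gene and cell made with Cell Ranger 7.0.0 on the mm10 build from 10x Genomics 3' v3.1 libraries; whether intronic reads were counted is not given in the sources used here. From these counts, cells were filtered (1500 to 60000 UMIs, under 10% mitochondrial), and assigned to classes by counting distinct markers with at least 1 UMI; gate thresholds were set after looking at the cells, and cells matching several gates (28 and 25) were left out. Doublet-scored cells (920 and 857) were kept in the main analysis and left out in an alternative. UMIs were summed per library and class, and classes with at least 10 cells in each library were compared 2 against 2 with edgeR 4.0.16 (quasi-likelihood, two-sided, TMM, filterByExpr) in R 4.3.3, with Benjamini-Hochberg adjustment over all genes other than the gate genes. DESeq2 1.42.0 was an alternative. The member genes and lists were chosen with earlier results of these data known. Named in the text were the 8 members in every class; of a wider list of 76 Wnt pathway genes (other ligands and R-spondins, Wls and Porcn, receptors and co-receptors, secreted and membrane inhibitors, the cytoplasmic cascade, nuclear cofactors and a few targets; members not counted), the 2 genes with the largest called difference in each direction; and the 3 most alike genes per member, of which 1 is not reported here. The edgeR step was tested on simulated data. The total depth was 74930397 and 68964234 UMIs; counting intervals and floors cover counting error only. Each library contributes cells to both classes compared, which pairs the sums: same-library deviations correlated at 0.088 to 0.362 across the 9 comparisons. Nothing in the labels says outright that the 2 samples are separate animals, so p-values measure only the spread between these libraries, which may be technical. Standard errors were taken from the log2 difference and its F statistic.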

Additional observations from a re-analysis of the deposited data

How the results depend on the processing

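Values below are counts of the 8 genes called, unless stated. Radial glia against intermediate progenitors went from 6 to 3 with DESeq2 and 3 with stricter gates, intermediate progenitors against newborn neurons from 7 to 4 with stricter gates, and newborn against deep-layer neurons from 4 to 2 with DESeq2 and 2 with stricter gates. Upper- against deep-layer neurons went from 0 to 2 with the library as a replicate block, 3 without the low-count filter and 1 with stricter gates. Cycling against non-cycling radial glia went from 2 to 1 with DESeq2 and to 1 with medial-marker cells left out, an alternative chosen after seeing the data. The block changed no other call among the 8 genes. The cause of these changes was not tested.

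Over all genes, DESeq2 called 2315 instead of 4022 between radial glia and intermediate progenitors, 2887 instead of 4622 between intermediate progenitors and newborn neurons, 1368 instead of 2508 between newborn and deep-layer neurons, 758 instead of 1242 between upper and deep layers, 3346 instead of 5167 between interneurons and excitatory neurons, 378 instead of 728 between MGE and CGE, 2107 instead of 3413 between fibroblasts and endothelial cells, and 515 instead of 1156 for cycling. The replicate block called 2081 for the layers, 1163 for MGE and CGE and 1879 for cycling; dropping the filter called 155 for MGE and CGE; a fit of all classes called 805 for the layers and 3404 for interneurons.

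Of 66 differences tested, 35 were called. Size factors of the DESeq2 type changed no call, nor did the stricter cell filter in the 62 it tested, though 1 called difference was among those it no longer tested. DESeq2 lost 8 calls. Stricter gates lost 6 of the 57 they tested and a further 2 that were no longer tested, Tcf7l1 between intermediate progenitors and newborn neurons and Wnt7a between newborn and deep-layer neurons. No called difference changed direction where it was tested. Leaving out 1 library leaves a value with no test: all called differences kept their sign in either library, while the folds that moved by over 1.5 times, or the UMIs by library where a class held 0 to 2, are given beside the results. With 1 more marker per class, 3.57% to 80.4% of a class's cells were lost. The class with the highest share of cells with a UMI was the same for 4 of 8 genes in cells before and after thinning to 2000 UMIs. Medial-marker against other radial glia was not run, since replicate 6 held 7 such cells. Counts of a few UMIs in a class leave wide counting intervals, given beside those results.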

Other observations

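Cajal-Retzius cells (53 and 50 cells), which entered no comparison, held Wnt7b at 183.8 ± 33.8 and Rspo3 at 180.9 ± 66.0 CPM (SD, n = 2). Their Rspo3 overlapped deep-layer neurons, at 134.2 and 227.5 against 147.2 and 137.1 CPM. Without cells holding a medial marker it was at 129.4 and 140.7 CPM against 148.8 and 137.0 in deep-layer neurons. All 6 and 8 Cajal-Retzius cells with a medial marker held Rspo3, as did 24 of 47 and 14 of 42 without one. Lef1 was at 33.1 and 33.0 CPM in these cells. Oligodendrocyte precursors (39 and 27 cells) held Wnt7b at 26.1 and 30.4 CPM and Wnt7a at 16.1 and 22.8 CPM, but 14 and 17 of these cells were doublet-scored. Without those, 25 and 10 cells were left, with Wnt7b at 27.4 and 50.4 CPM and Wnt7a at 19.5 and 25.2 CPM, from 7 and 4 and from 5 and 2 UMIs, and Lef1 went from 17 and 1 UMIs to 1 and 1.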
